A study of Homo sapiens with 12 samples.

Results

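SIVA-WT transfectants were compared with control cells in 4 established human cancer cell lines, which gave 8 of the 12 RNA-seq libraries of the series. The breast cancer lines were MDA-MB-231 and HCC1954. OVCAR8 and SKOV3 derive from ovarian cancers. The 8 libraries were chosen by their labels alone, 1 control and 1 SIVA-WT library from each line, so that the line was both the replicate and the pair. The control libraries are titled parental and carry no treatment in the labels, whereas the methods of the study describe empty vector (EV) cells. The SIVA-WT cells were transfected by lipofection with a linearized plasmid that drives wild-type SIVA from the CMV promoter, and were kept under hygromycin as stable polyclonal transfectants. The other 4 libraries came from cells given the same vector with SIVA-D160N, a point mutant, and were used here to estimate the spread between libraries. If the controls were untransfected, the effects of transfection and drug selection cannot be told apart from those of SIVA-WT. Each line had 1 library of each kind, so a difference seen within a line had no replicate of its own.

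SIVA, encoded by SIVA1, was described as a pro-apoptotic protein that binds the cytoplasmic tail of the TNF receptor family member CD27. It has also been linked to microtubule regulation through stathmin. Gene lists for these functions, and for the signalling, stress and matrix programmes of carcinoma lines, were described alongside the leading genes. These lists were chosen with earlier results of the same data known.

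The 8 libraries held between 35791455 and 45890398 counts assigned to genes. The share of mitochondrially encoded transcripts was 3.61% to 5.77%, and the 10 most abundant genes took 6.26% to 7.73%. No library had a depth that set it apart. Of 57187 genes in the table, 17211 passed the low-count filter and were tested. Levels are given as counts or as CPM (counts scaled to a common library total), which is not scaled to gene length. A log2 ratio is the SIVA-WT level over the control level of the same line on the log2 scale, with a prior count of 2. Where 4 values are listed they follow the order MDA-MB-231, HCC1954, OVCAR8 and SKOV3. Markers chosen for each line were looked up in both groups, and not all of them marked their line. The HER2 gene ERBB2 was at 9223 and 7697 CPM in control and SIVA-WT HCC1954 cells and at 12170 and 8860 CPM in SKOV3. The epithelial cadherin CDH1 was high only in HCC1954 among the 4 lines, at 807 and 816 CPM. PAX8 was at 76.4 and 67.3 CPM in OVCAR8 and 230 and 243 in SKOV3, against 3.43 or less in the breast lines. VIM was at 3932 and 3240 CPM in MDA-MB-231 and 3255 and 2933 in OVCAR8, but also at 3716 and 3804 in SKOV3. CDH6, chosen for OVCAR8, had 0 counts in both OVCAR8 libraries. KRT7, chosen for SKOV3, was at 9.14 and 12.3 CPM there, the lowest of the 4 lines.

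The introduced gene was examined first. SIVA1 (chromosome 14, 104753147 to 104759654, GRCh38) had 1272, 0, 2419 and 1985 counts in the control libraries and 3193, 1646, 6723 and 4741 in the SIVA-WT libraries. All 4 SIVA-WT libraries lay above the control of their own line. The increase was 2.87-fold in MDA-MB-231 (95% interval 2.69 to 3.06), 2.66-fold in OVCAR8 (2.54 to 2.79) and 2.02-fold in SKOV3 (1.92 to 2.13), where the intervals cover counting error only. In HCC1954 the control had no count, and the SIVA-WT level of 38.2 CPM was at least 531-fold higher than a floor of 3 counts. The groups overlapped across lines: the 1646 counts in SIVA-WT HCC1954 cells were fewer than the 2419 and 1985 counts in the OVCAR8 and SKOV3 controls. In the fit the SIVA1 log2 fold change was 1.97 ± 0.68 (SE), with an unadjusted p of 0.0145 and an FDR of 1 by edgeR. The FDR ranged from 0.00441 to 1 over the alternatives and was 0.0101 without HCC1954, where the log2 fold change was 1.32. An exact sign-flip test over the 4 lines gave p = 0.12, the smallest that 4 lines allow. The SIVA-D160N libraries held 2807, 930, 6150 and 4542 SIVA1 counts.

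SIVA1 had no count in control HCC1954 cells, whereas the genes next to it on the chromosome, looked up after that value was seen, had counts there. ADSS1 (listed as ADSSL1), the next protein-coding gene on one side, had 225 counts in the HCC1954 control and 255 in SIVA-WT cells. AKT1, the kinase gene on the other side, had 8253 and 7494. Whether the counts of SIVA1 in the SIVA-WT libraries came from the plasmid or from the cell's own gene was not tested.

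Across all 17211 genes, no gene passed the threshold of an FDR below 0.05 with a log2 fold change of 1.5 or more in size by edgeR (0%). The smallest FDR was 0.159, for DIO2, and the next was 1. An unadjusted p below 0.05 was reached by 437 genes (2.54%). SIVA-WT cells had the higher level for 253 of them (1.47%) and the lower level for 184 (1.07%), against 860.55 that chance alone would give. Without SKOV3, 451 genes were higher at that p. The same threshold was passed by 1 gene with limma-voom and by 1 gene with DESeq2, DIO2 in both. A single direction in all 4 lines was seen for 1607 genes (9.34%), with 786 higher (4.57%) and 821 lower (4.77%). Directions that fell at random and independently in each line would give a larger share. A shared direction alone therefore does not set a gene apart from chance. Genes named in what follows are given with their values and not as calls.

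Within single lines the differences were larger and mostly not shared. Of all tested genes, 46.7%, 49.2%, 49.6% and 49.7% were higher and 50.0%, 48.6%, 48.8% and 48.8% lower by any amount. At least 2-fold higher levels were counted in MDA-MB-231 for 426 genes (2.48%), in HCC1954 for 598 (3.47%), in OVCAR8 for 339 (1.97%) and in SKOV3 for 334 (1.94%). At least 2-fold lower levels were counted for 361 (2.1%), 175 (1.02%), 205 (1.19%) and 662 genes (3.85%). HCC1954 had more genes higher than lower and SKOV3 had more genes lower than higher. Among all genes, tested or not, with at least 100 counts in 1 library of the line, these were 62 higher (0.525%) and 82 lower (0.695%) in MDA-MB-231 and 131 (1.06%) and 27 (0.219%) in HCC1954. In OVCAR8 they were 34 (0.28%) and 6 (0.0493%), and in SKOV3 107 (0.881%) and 186 (1.53%). Of 2570 genes past 2-fold in any line, 2093 were past it in exactly 1 line and 254 moved in opposite ways in different lines. In at least 2 lines, 166 genes were 2-fold higher and 98 were 2-fold lower.

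**Figure D1:**
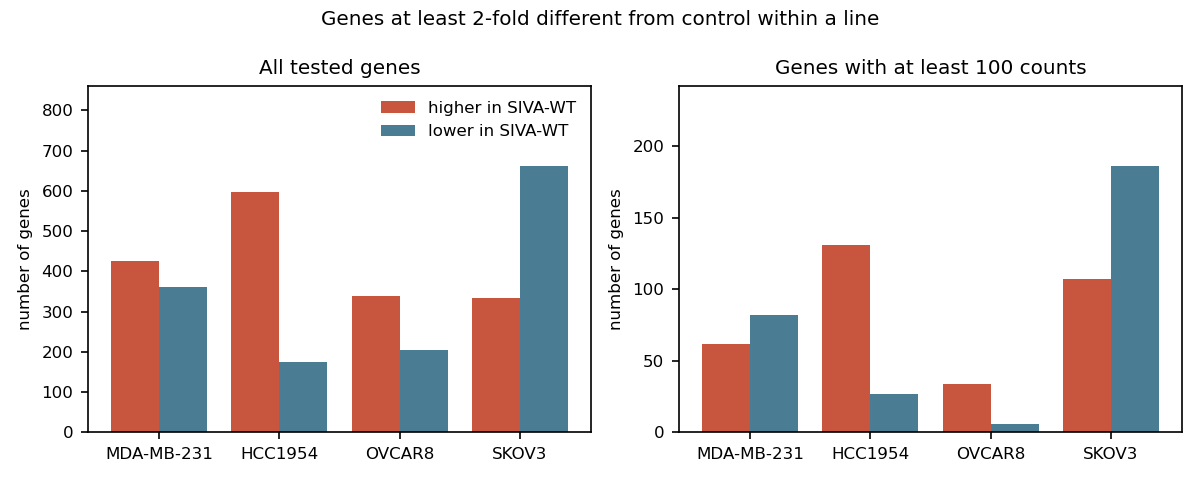
Number of genes at least 2-fold higher or lower in SIVA-WT than in control cells within each of the 4 lines (x axis, cell line; y axis, number of genes), for 1 library against 1. HCC1954 leaned to higher and SKOV3 to lower levels, and the counts carry no replicate error.

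DIO2, which encodes the type 2 iodothyronine deiodinase that converts thyroxine into the active thyroid hormone, led the comparison. It had 3, 1478, 5 and 583 counts in the controls and 4, 4342, 12 and 3784 in the SIVA-WT cells. The level was 2.84-fold higher in HCC1954 (95% counting interval 2.68 to 3.02) and 5.49-fold higher in SKOV3 (5.03 to 6.0), whereas MDA-MB-231 and OVCAR8 had 12 counts or fewer in both libraries. The log2 fold change was 1.92 ± 0.25 (SE), with an unadjusted p of 9.26e-06 and an FDR of 0.159 by edgeR. The FDR of DIO2 was 0.0421 with limma-voom and 0.0256 with DESeq2, and over all alternatives it ranged from 3.95e-08 to 1. The SIVA-D160N libraries held 3, 5917, 10 and 5249 DIO2 counts. The gene is at chromosome 14, 80197526 to 80231057 (GRCh38).

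The stretch of the DIO2 promoter shown here holds a cAMP response element, TGACGTCA (capitals), the element through which the gene is known to respond to cyclic AMP. It is chr14:80212222-80212319, minus strand, GRCh38.p14, from RefSeq, with the element starting 96 bases before the transcription start. The element occurs in 1.65% of 35116 RefSeq promoter windows when the 250 bases before the start are searched on both strands.
DIO2: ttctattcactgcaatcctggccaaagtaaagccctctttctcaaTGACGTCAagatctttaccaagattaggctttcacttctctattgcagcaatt
A match is a description of these letters, and no binding was measured.

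DIO2 was not accompanied by the thyroid hormone genes as a group. Of 18 genes of thyroid hormone handling, 12 were tested. DIO2 and THRB, the thyroid hormone receptor beta gene, had an unadjusted p below 0.05, both higher (2 of 12, against 1.47% of all genes). Both are also named here for their p, and the list was chosen with earlier results of these data known. This share is therefore not a separate result. THRB had 21, 782, 11 and 1069 counts in control and 25, 1219, 15 and 2024 in SIVA-WT cells, higher in 4 of 4 lines, with a log2 fold change of 0.59 ± 0.15 (SE). KLF9, a target gene of the receptor, was lower in SKOV3 with 110 and 57 counts and differed in direction between lines (log2 ratios -0.40, -0.01, 0.39 and -1.16). The median log2 fold change of the list was -0.02.

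**Figure D2:**
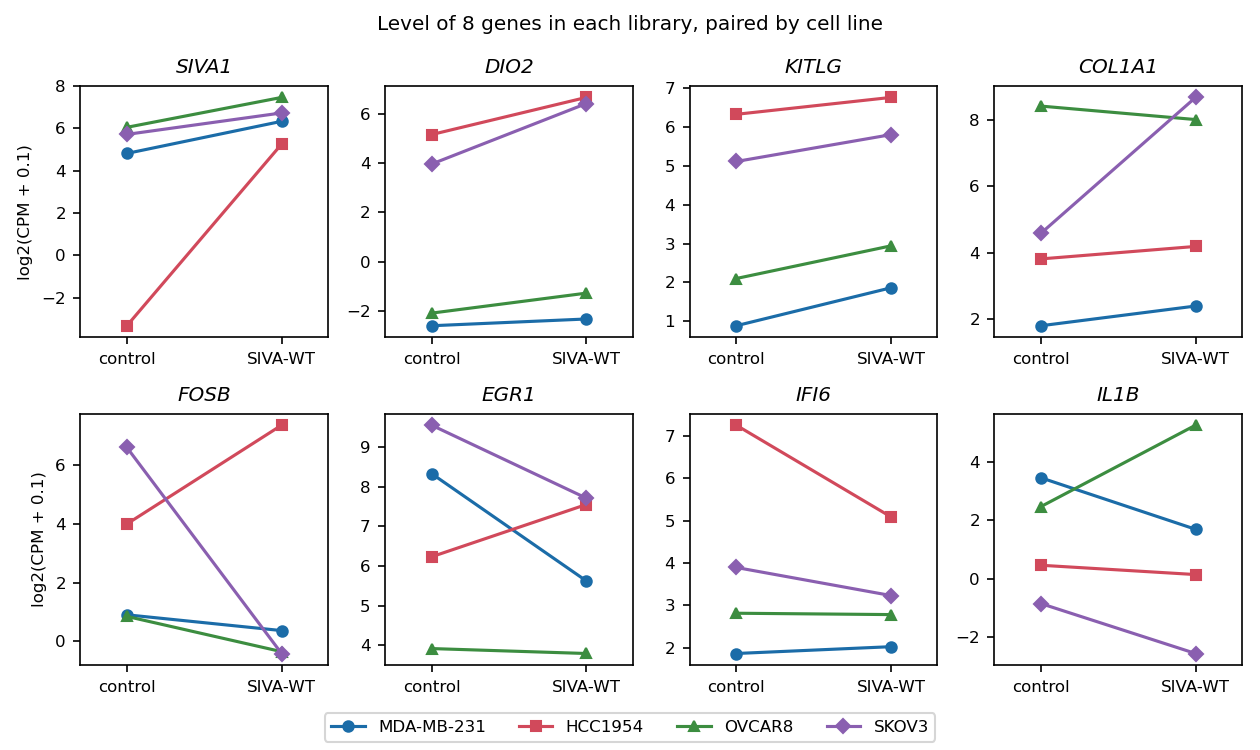
Levels of 8 genes in control and SIVA-WT libraries (x axis, group; y axis, log2 of CPM plus 0.1), with a line joining the 2 libraries of each cell line. SIVA1 was higher in all 4 lines, FOSB, EGR1 and IL1B differed in direction between lines, and COL1A1 had its largest difference in SKOV3 and IFI6 in HCC1954.

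Among genes higher in all 4 lines with enough counts in each, those with the smallest p included KITLG, which encodes the ligand of the KIT receptor. KITLG had 79, 3356, 153 and 1307 counts in control and 140, 4691, 289 and 2498 in SIVA-WT cells. The log2 ratio was 0.74 ± 0.24 (SD, n = 4), and no line fell below 0.44. By edgeR the log2 fold change was 0.70 ± 0.16 (SE), the unadjusted p was 0.00124 and the FDR was 1. FAM133A was more uneven, with counts going from 75 to 539 in MDA-MB-231, 12 to 45 in HCC1954, 46 to 57 in OVCAR8 and 43 to 112 in SKOV3, so that its log2 ratio was 1.51 ± 1.16 (SD, n = 4). OLFML2B, a secreted olfactomedin-domain protein gene, was likewise uneven at 1.06 ± 0.78 (SD, n = 4). Smaller and more even differences were found for TGM2, the tissue transglutaminase gene, which had 19945, 8908, 39817 and 2073 counts in control and 24248, 12889, 48280 and 3506 in SIVA-WT cells. The TGM2 log2 ratio was 0.42 ± 0.14 (SD, n = 4). MED12, a subunit of the Mediator kinase module, had a log2 ratio of 0.37 ± 0.17 (SD, n = 4), and ADGRG6, an adhesion G protein-coupled receptor gene, 0.60 ± 0.23. The rest of the 10 were THRB, ATHL1 (0.42 ± 0.26), the microtubule-severing factor gene FIGN (0.34 ± 0.24) and the axonemal dynein gene DNAH5 (0.43 ± 0.10). None of these genes passed the FDR threshold in this fit. When all genes with at least 1 count were tested, the FDR was 0.00352 for FAM133A and 0.0243 for KITLG, and over the alternatives it ranged up to 1 for both.

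The 10 genes chosen in the same way among those lower in all 4 lines differed by less. NPAS1, a transcription factor gene, had the largest difference, with 42, 31, 149 and 69 counts in control and 20, 23, 102 and 41 in SIVA-WT cells and a log2 ratio of -0.70 ± 0.23 (SD, n = 4). CIRBP, the cold-inducible RNA-binding protein gene, was at -0.26 ± 0.13. TPT1, which encodes the translationally controlled tumour protein, had 57455, 40495, 87682 and 63768 counts in control and 42643, 33938, 81849 and 63411 in SIVA-WT cells. Its log2 ratio of -0.24 ± 0.06 (SD, n = 4) was small and even. The noncoding genes SNHG17, a snoRNA host, and WAC-AS1 were at -0.33 ± 0.06 and -0.35 ± 0.08, and TK2, the mitochondrial thymidine kinase gene, at -0.39 ± 0.12. TFPI, the tissue factor pathway inhibitor gene, was at -0.40 ± 0.33, with most of the difference in SKOV3 (2729 and 1846 counts). PITPNC1 was at -0.38 ± 0.31, PGPEP1 at -0.41 ± 0.26 and AGAP2 at -0.49 ± 0.25. WAC-AS1 is an antisense transcript, and the strand setting of the counting is not given in the sources used here.

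Other leading genes by p were expressed in only some lines. COL3A1, the type III collagen gene, had 1, 53, 0 and 24 counts in control and 0, 319, 0 and 454 in SIVA-WT cells, with a log2 fold change of 2.98. POSTN, the matricellular protein periostin, went from 7 to 43 counts in HCC1954 and from 4425 to 15177 in SKOV3 and had no count in the 4 MDA-MB-231 and OVCAR8 libraries. PCDH17, a protocadherin gene, went from 227 to 516 counts in SKOV3 and from 15 to 43 in OVCAR8. In the other direction, PAEP, the glycodelin gene, went from 17703 to 4133 counts in MDA-MB-231, and GDA, the guanine deaminase gene, from 4008 to 2331 in SKOV3 and from 90 to 20 in OVCAR8. PPP1R1B, a phosphatase inhibitor gene, went from 4684 to 2872 counts in HCC1954 and from 1691 to 632 in SKOV3. AMTN had 4332 and 2201 counts in SKOV3, and C1QTNF1 had 75 and 30 in HCC1954. None of these 8 genes passed the FDR in the edgeR fit, and GDA had an FDR of 0.0256 with DESeq2, short of the fold threshold. When all genes with at least 1 count were tested, the FDR was 4.96e-05 for COL3A1, 0.00021 for POSTN, 0.00352 for PAEP, 0.00352 for GDA and 0.00782 for PPP1R1B. Over all alternatives the highest FDR of each of these 5 genes was 1.

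Several matrix genes were higher in HCC1954 and SKOV3. Of 26 tested collagen and matricellular genes, 3 had an unadjusted p below 0.05, all higher (1.47% of all genes), namely COL3A1, COL5A1 and COL4A1. The list median was 0.19, against -0.01 over all tested genes, and 0.11 without HCC1954. The line medians were -0.07, 0.54, 0.13 and 0.12. Of the 26 members, 19 were higher and 7 lower in HCC1954, and 15 were higher and 11 lower in SKOV3. COL5A1, a fibrillar collagen gene with an FDR of 0.0204 when all genes were tested and up to 1 over the alternatives, had 644, 8513, 4 and 22622 counts in control and 637, 15811, 3 and 54540 in SIVA-WT cells. COL4A1, a basement membrane collagen gene, was higher in 4 of 4 lines, with log2 ratios of 0.08, 0.76, 0.36 and 0.59. COL1A1, the main chain of type I collagen, went from 900 to 18174 counts in SKOV3, a 17.1-fold difference (95% counting interval 16.0 to 18.3), and from 12401 to 9763 in OVCAR8. The SIVA-D160N library of SKOV3 held 20454 COL1A1 counts. COL8A1 went from 16 to 121 counts in HCC1954.

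The EMT list, made of transcription factors and mesenchymal markers, was high in 1 line. In HCC1954, 20 of 21 tested members were higher (49.2% of all genes) and 7 were at least 2-fold higher (3.47%), with a median log2 ratio of 0.68, whereas the medians were 0.00, -0.06 and -0.12 in MDA-MB-231, OVCAR8 and SKOV3. FN1, the fibronectin gene, had 11121, 6085, 6321 and 7062 counts in control and 9844, 14794, 12784 and 9539 in SIVA-WT cells, the largest differences being in HCC1954 and OVCAR8. LOX, the lysyl oxidase gene that crosslinks collagen, had 376, 63, 116 and 495 counts in control and 436, 133, 132 and 1024 in SIVA-WT cells. FN1, LOX and POSTN had an unadjusted p below 0.05 (3 of 21, against 1.47% of all genes), and none passed the FDR. The integrin and laminin list also leaned higher in HCC1954, with 23 of 26 members higher and a median of 0.37, including the integrin alpha 4 gene ITGA4 with 40 and 183 counts. In MDA-MB-231, 19 of 26 were lower, at a median of -0.17. In the epithelial list, KRT5, a basal keratin gene, went from 9970 to 17391 counts in HCC1954, and the list medians stayed between -0.08 and 0.17. Among 31 matrix proteases and inhibitors, none had an unadjusted p below 0.05 and the list median was -0.03.

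Immediate early genes, which are transcribed within minutes of growth factor signals or stress and include the AP-1 factors, moved in opposite ways in different lines. Of 24 tested members, 22 were lower in MDA-MB-231 and 21 in SKOV3, whereas 20 were higher in HCC1954. The medians were -0.51, 0.57, -0.12 and -0.54, and at least 2-fold differences were counted for 5 members lower in MDA-MB-231 (2.1% of all genes), 10 lower in SKOV3 (3.85%) and 6 higher in HCC1954 (3.47%). The list median in the fit was -0.22, and it was -0.04 without SKOV3 and -0.44 without HCC1954. FOSB, a subunit of AP-1, had 80, 661, 62 and 3661 counts in control and 47, 7074, 26 and 29 in SIVA-WT cells. That is 10.4-fold higher in HCC1954 (95% counting interval 9.56 to 11.2) and 149-fold lower in SKOV3 (104 to 223). In the SIVA-D160N libraries FOSB had 34, 351, 35 and 62 counts. The HCC1954 level was thus high in the SIVA-WT library alone, and the SKOV3 level in the control library alone. EGR1, a zinc finger factor of the same class, had 14586, 3128, 546 and 28451 counts in control and 1947, 8078, 522 and 9370 in SIVA-WT cells. ATF3, a stress-induced bZIP factor gene, went from 1024 to 40 counts in SKOV3, 30.3-fold lower (22.1 to 42.6), and from 1386 to 2395 in HCC1954. The SIVA-D160N library of SKOV3 held 63 ATF3 and 5878 EGR1 counts, also below its control. EGR2 had 13 and 131 counts in HCC1954 and 88 and 32 in SKOV3. Over the 4 lines the only members with an unadjusted p below 0.05 were JUND and KLF2, both lower (2 of 24, against 1.07% of all genes). Each of these levels came from 1 library per line, and the time from medium change to lysis is not given in the sources used here.

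The CArG box, in capitals, is the serum response factor element of many immediate early promoters. It is shown for EGR1 and EGR2 because both were higher in HCC1954 and lower in MDA-MB-231 and SKOV3. The windows are chr5:138465329-138465450, plus strand, and chr10:62816383-62816482, minus strand, both GRCh38.p14 from RefSeq.
EGR1: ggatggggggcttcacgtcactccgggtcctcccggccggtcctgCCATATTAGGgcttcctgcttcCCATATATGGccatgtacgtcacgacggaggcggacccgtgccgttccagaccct
EGR2: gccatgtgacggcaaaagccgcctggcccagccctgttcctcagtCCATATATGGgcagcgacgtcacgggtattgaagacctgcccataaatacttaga
CArG boxes were found within 250 bases before the start in EGR1, EGR2 and SRF, 3 of 18 members of the list with a promoter in the table, against 1.44% of 27305 genes. The median log2 ratios of these 3 were -1.18, 1.32, -0.12 and -1.63, and those of the 15 members without a box had the same signs, at -0.48, 0.62, -0.11 and -0.74. 

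Genes that report on ERK signalling, the kinase cascade below growth factor receptors, were lower on balance. In the fit 21 of 22 members had a negative log2 fold change, whereas 48.4% of all genes had a positive one. The list median was -0.31 against -0.01 over all genes, and 4 members were lower in all 4 lines (4.77% of all genes). The line medians were -0.41, -0.06, 0.00 and -0.72, and 12 of the 22 members were higher in OVCAR8. The median of the fit was -0.12 without SKOV3 and -0.41 without HCC1954. SPRY4, a feedback inhibitor of the cascade, had 15849, 1422, 874 and 1646 counts in control and 9251, 1074, 892 and 969 in SIVA-WT cells. DUSP4, an ERK phosphatase gene, was lower mainly in SKOV3, with 2488 and 1440 counts, and EPHA4, an ephrin receptor gene, was the member that was higher (log2 fold change 0.53). These 3 genes had an unadjusted p below 0.05, 1 of 22 higher and 2 lower, against 1.47% and 1.07% of all genes. None passed the FDR. In the EGF receptor family list of 12 tested genes, none had a p below 0.05. EREG, the epiregulin gene, went from 2163 to 687 counts in MDA-MB-231, and BTC, the betacellulin gene, from 112 to 49 in SKOV3.

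**Figure D3:**
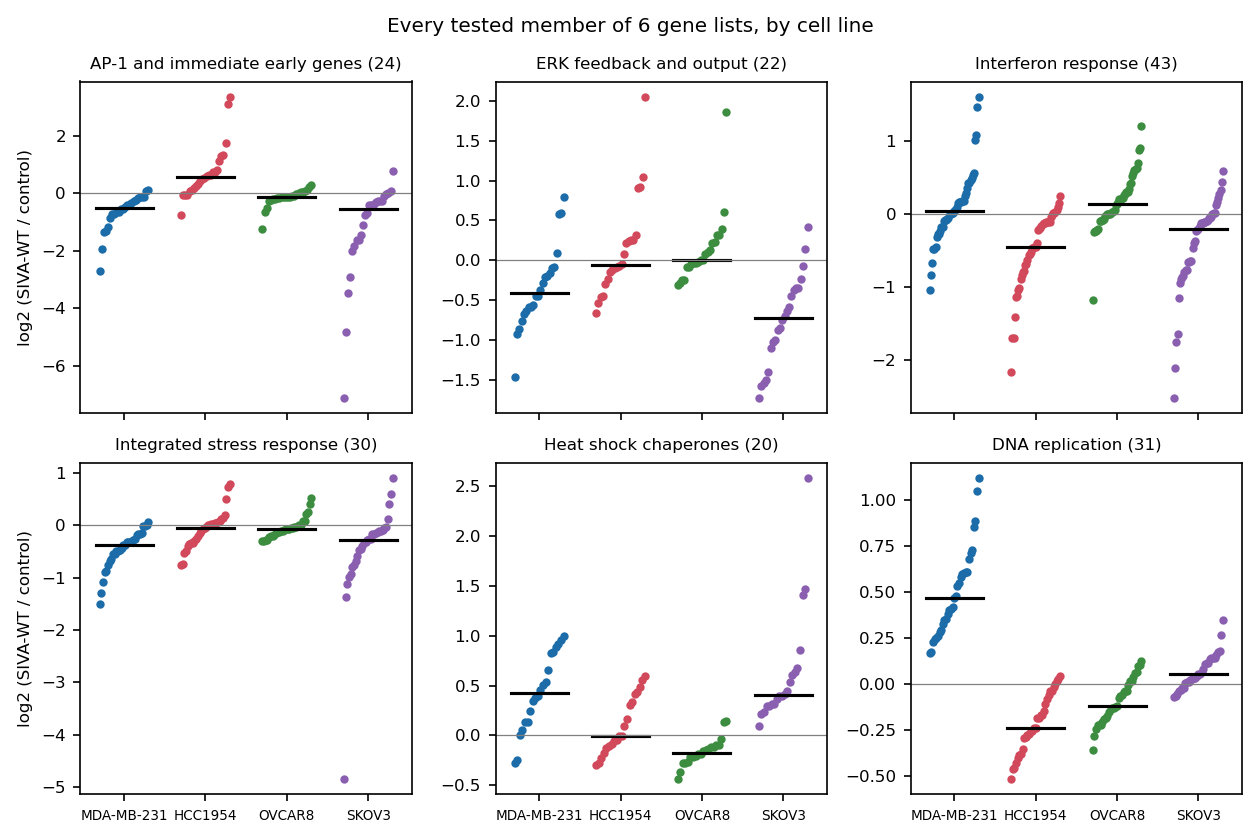
Within-line log2 ratios of SIVA-WT over control (y axis) for each tested member of 6 gene lists, by cell line (x axis), 1 point per gene and a bar at the median. Immediate early genes lay mostly above 0 in HCC1954 and mostly below it in MDA-MB-231 and SKOV3, and all 31 DNA replication genes lay above 0 in MDA-MB-231.

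Interferon-response genes, which encode antiviral effectors and sensors, were lower in HCC1954 and SKOV3. Of 43 tested members, 36 were lower in HCC1954 and 34 in SKOV3, with medians of -0.46 and -0.21, whereas 24 and 27 were higher in MDA-MB-231 and OVCAR8, with medians of 0.04 and 0.14. The summed level of the list in HCC1954 went from 3552 to 2676 CPM, and 8 members were at least 2-fold lower there (1.02% of all genes). IFI6, an interferon-induced mitochondrial protein gene, had 160, 6367, 253 and 558 counts in control and 157, 1463, 258 and 415 in SIVA-WT cells, 4.50-fold lower in HCC1954 (95% counting interval 4.25 to 4.76). The SIVA-D160N library of HCC1954 held 360 IFI6 counts. ISG15, the ubiquitin-like modifier gene, went from 1949 to 618 counts in HCC1954 and from 370 to 551 in SKOV3, so that these lines differed. IFI44L went from 1735 to 551 counts in HCC1954 and from 127 to 33 in SKOV3. OAS1 and OAS2, the oligoadenylate synthetase genes that activate RNase L, went from 1417 to 941 and from 3008 to 1416 counts in HCC1954 and from 140 to 27 and from 113 to 38 in SKOV3. With ISG20, the genes IFI44L, OAS1 and OAS2 were the 4 members with an unadjusted p below 0.05 (1.07% of all genes were lower at that p). The list median in the fit was -0.18, and it was -0.03 without HCC1954, -0.08 without SKOV3, -0.27 without MDA-MB-231 and -0.32 without OVCAR8.

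The interferon-stimulated response element, GAAANNGAAA on either strand (TTTCNNTTTC when read on the other), is bound by the ISGF3 complex. It is shown in capitals in 4 promoters of the list, from RefSeq with GRCh38.p14 positions: chr1:27672231-27672393 (minus strand), chr1:78620239-78620429 (plus strand), chr1:1013339-1013444 (plus strand) and chr10:89392462-89392574 (plus strand).
IFI6: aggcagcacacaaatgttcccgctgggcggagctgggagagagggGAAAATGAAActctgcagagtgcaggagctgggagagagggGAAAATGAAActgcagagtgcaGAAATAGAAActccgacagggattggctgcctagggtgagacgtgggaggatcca
IFI44L: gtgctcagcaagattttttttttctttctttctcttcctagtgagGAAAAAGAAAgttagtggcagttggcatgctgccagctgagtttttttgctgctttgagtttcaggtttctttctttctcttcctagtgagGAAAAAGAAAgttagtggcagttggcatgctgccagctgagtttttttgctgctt
ISG15: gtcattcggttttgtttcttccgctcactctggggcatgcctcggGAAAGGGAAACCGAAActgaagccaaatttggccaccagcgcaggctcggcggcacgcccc
IFIT1: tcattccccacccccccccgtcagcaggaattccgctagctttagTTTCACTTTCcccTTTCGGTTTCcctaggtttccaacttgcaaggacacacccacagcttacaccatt
The element was found in 23 of the 36 members with a promoter in the table (63.9%), against 3.71% of 27305 genes. In HCC1954, 21 of the 22 tested members with the element were lower, at a median log2 ratio of -0.46, and 8 of 13 without it, at -0.20. In SKOV3 these medians were -0.30 and -0.13. They were 0.032 and 0.011 in MDA-MB-231 and 0.208 and 0.055 in OVCAR8, higher with the element. These are descriptions of the list and carry no test.

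Inflammatory cytokine genes differed in opposite directions in OVCAR8 and MDA-MB-231. IL1B, the interleukin 1 beta gene, had 495, 53, 199 and 17 counts in control and 124, 43, 1470 and 3 in SIVA-WT cells, 7.08-fold higher in OVCAR8 (95% counting interval 6.10 to 8.25). IL1A, its relative, had 1086, 2, 75 and 128 counts in control and 154, 1, 315 and 32 in SIVA-WT cells. The SIVA-D160N libraries of MDA-MB-231 and OVCAR8 held 127 and 1235 IL1B counts. Of 24 tested NF-kB and cytokine genes, 21 were lower in MDA-MB-231 and 18 higher in OVCAR8, with line medians of -0.54, 0.11, 0.21 and 0.00, and none had an unadjusted p below 0.05.

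Integrated stress response genes, the ATF4 programme that follows amino acid shortage and other stresses, were lower on balance. In the fit 28 of 30 members had a negative log2 fold change, whereas 48.4% of all genes had a positive one. The list median was -0.26, and 9 members were lower in all 4 lines, against 4.77% of all genes. The line medians were -0.36, -0.04, -0.07 and -0.27. ATF4 itself had 28955, 12333, 17653 and 13640 counts in control and 22931, 11069, 15830 and 11780 in SIVA-WT cells, with a log2 fold change of -0.26 ± 0.09 (SE) and an unadjusted p of 0.017 by edgeR. PPP1R15A, which encodes the phosphatase subunit that restores translation, went from 17858 to 6404 counts in MDA-MB-231 and from 2782 to 1266 in SKOV3 and differed little in HCC1954 (3026 and 3313). These 2 genes were the members with a p below 0.05 (1.07% of all genes), and neither passed the FDR. Without MDA-MB-231 the list median was -0.15. The summed level of the list went from 9965 to 7508 CPM in MDA-MB-231. Aminoacyl-tRNA synthetase genes were at a list median of -0.07 and genes of the unfolded protein response at -0.03, with no member of either at p below 0.05.

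Heat shock chaperone genes were higher in MDA-MB-231 and SKOV3. All 20 tested members were higher in SKOV3 and 17 in MDA-MB-231, at medians of 0.41 and 0.43, whereas 18 were lower in OVCAR8, at -0.17, and the HCC1954 median was -0.01. HSPH1, a nucleotide exchange factor of HSP70, had 5624, 6578, 20081 and 8252 counts in control and 8719, 9215, 20419 and 14141 in SIVA-WT cells. DNAJB4, an HSP40 family co-chaperone gene, was higher in 4 of 4 lines, with 565, 663, 2008 and 304 counts in control and 650, 1034, 2321 and 560 in SIVA-WT cells. CHORDC1, an HSP90 co-chaperone gene, was also higher in 4 of 4 lines (log2 ratios 0.25, 0.49, 0.14 and 0.29). These 3 members had an unadjusted p below 0.05 (1.47% of all genes) and an FDR of 1 by edgeR. The list median in the fit was 0.22, and it was 0.07 without SKOV3, 0.14 without MDA-MB-231 and 0.34 without OVCAR8.

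Cell cycle genes were higher in MDA-MB-231, with smaller differences of either sign in the other lines. All 31 DNA replication genes and all 29 mitosis genes were higher there, at medians of 0.47 and 0.29, and the summed replication level went from 3343 to 4629 CPM. In HCC1954, 27 of the 31 replication genes were lower, at a median of -0.24, and the sum went from 3998 to 3344 CPM. The OVCAR8 and SKOV3 medians were -0.12 and 0.05. MCM4, a subunit of the replicative helicase, had 5289, 10609, 19124 and 12368 counts in control and 8367, 10368, 20829 and 14704 in SIVA-WT cells. KIF20A, a mitotic kinesin gene, went from 2605 to 4046 counts in MDA-MB-231 and from 8757 to 8837 in HCC1954. No member of either list had a p below 0.05, and no replication gene had 1 direction in all 4 lines.

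The lists for the described functions of SIVA differed little in the fit. Of 11 tested genes for SIVA partners and death receptor relatives, none had an unadjusted p below 0.05, and the log2 fold changes lay between -0.18 and 0.09. The 16 BCL2 family genes and the 19 caspase and IAP genes had no member with a p below 0.05, at medians of -0.08 and 0.01. The line medians were -0.11, -0.15, 0.08 and 0.08 for the BCL2 list and 0.08, 0.09, 0.03 and 0.03 for the caspase list. BCL2L1, the BCL-XL gene, was lower in 4 of 4 lines by little, with log2 ratios of -0.10, -0.20, -0.08 and -0.07, and BCL2L11, the BIM gene, was higher in 4 of 4 lines at 0.53, 0.19, 0.15 and 0.02. CASP10, an initiator caspase gene, was higher in 4 of 4 lines at 0.18, 0.46, 0.20 and 0.12. The 21 microtubule regulators had a median of 0.06, with line medians of 0.17, 0.03, -0.11 and 0.11. Their summed level went from 6666 to 9280 CPM in MDA-MB-231 and from 8701 to 9905 in SKOV3. It went from 7624 to 6836 CPM in HCC1954 and from 10040 to 8812 in OVCAR8. In HCC1954, 3 members were at least 2-fold higher (3.47% of all genes). STMN1, the stathmin gene, had log2 ratios of 0.27, -0.11, -0.30 and -0.20. TUBA1A, an alpha tubulin gene, went from 1332 to 3148 counts in HCC1954.

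The remaining lists had medians near that of all genes. The 25 PI3K, AKT and mTOR genes were at 0.03, and EIF4EBP1, the translation repressor 4E-BP1, was lower in 4 of 4 lines with log2 ratios of -0.21, -0.23, -0.32 and -0.14. The 26 Hippo genes were at 0.08, and NF2, the merlin gene upstream of the pathway, went from 66 to 144 counts in OVCAR8 and from 4701 to 7101 in SKOV3. EIF4EBP1 and NF2 were the members of these lists with a p below 0.05 (1.07% of all genes were lower and 1.47% higher at that p). The autophagy, sterol, glycolysis and NRF2 lists had medians of -0.04, 0.03, -0.02 and -0.10 and no member with a p below 0.05. In HCC1954, 25 of 33 sterol and fatty acid genes were lower, at a median of -0.17, and the other 3 lines were at 0.11, 0.08 and 0.11. Of 13 mitochondrially encoded transcripts, all were higher in SKOV3, at a median of 0.26, and MT-ND4L was higher in 4 of 4 lines.

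**Figure D4:**
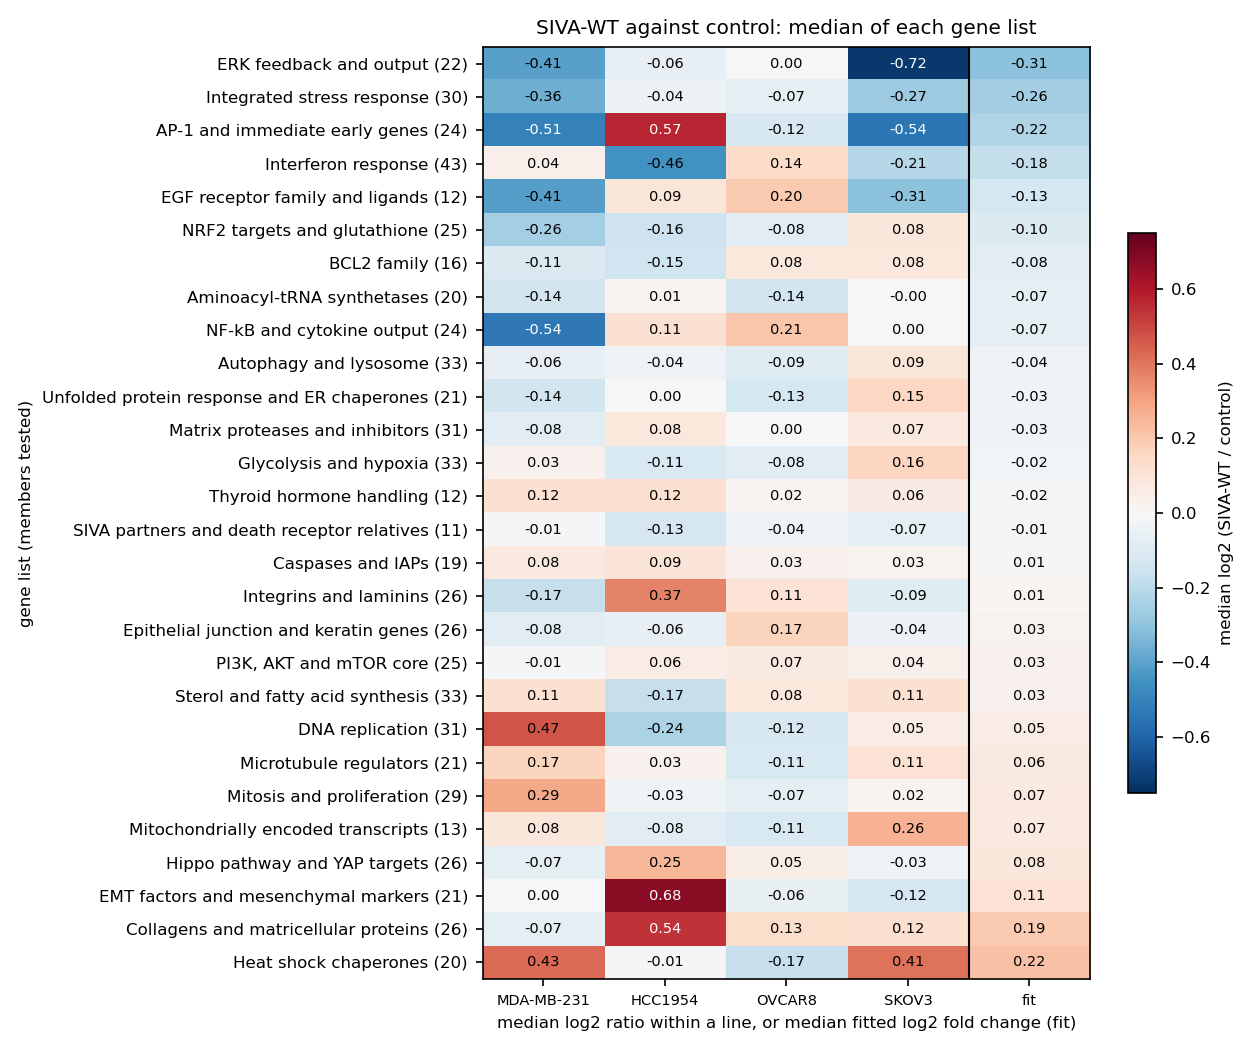
Median within-line log2 ratio of SIVA-WT over control for each gene list (y axis, list) in each of the 4 lines, with the median fitted log2 fold change beside them (x axis), as a colour scale with the value printed. The immediate early list ran from -0.54 to 0.57 between lines, and the caspase and PI3K lists lay near 0.

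Of the markers of other cell types, those of leukocytes were sparse. None of the 10 leukocyte genes passed the filter, 4 had no count in any of the 8 libraries, and their summed level was 0.238 to 1.70 CPM. Of the endothelial genes, 4 of 7 were tested, and the 7 summed to 92.6 and 79.9 CPM in control and SIVA-WT HCC1954 cells. PECAM1, an endothelial adhesion molecule gene, had 2616 and 2592 counts in HCC1954 and at most 69 in the other lines, and KDR, a VEGF receptor gene, went from 144 to 45 counts in SKOV3. Of the fibroblast and muscle genes, 4 of 9 were tested. The sum of the 9 was 350 and 268 CPM in control and SIVA-WT OVCAR8 cells. In SKOV3 it went from 38.5 to 440 CPM, with COL1A1 at 23.8 and 407 CPM. In the same line PDGFRB, the PDGF receptor beta gene of mesenchymal cells, went from 3 to 61 counts, and ACTA2, the smooth muscle actin gene, from 43 to 32.

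Several single genes set 1 line apart. In MDA-MB-231, TMPRSS15, the enteropeptidase gene, went from 129 counts to 1, while the SIVA-D160N library held 126, and in SKOV3 it went from 2123 to 3295. GRAMD1B, a sterol transfer protein gene, went from 310 to 20 counts in MDA-MB-231, 13.6-fold lower, and UNC5B, a netrin dependence receptor gene, from 136 to 13. Neither gene differed by 2-fold in the other 3 lines. In SKOV3, HES1, the Notch target gene, went from 4568 to 651 counts, and the SIVA-D160N library held 435. In the same line PSG1, a pregnancy-specific glycoprotein gene, went from 8 to 203, and FGB, the fibrinogen beta chain gene, from 12 to 184. H19, an imprinted noncoding RNA, went from 47 to 396 counts in SKOV3 and from 177 to 107 in HCC1954. RASD1, a small GTPase gene, went from 46 to 337 counts in HCC1954.

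The response was compared between breast and ovarian lines by an interaction term. No gene passed the FDR in edgeR (0%), and 306 had an unadjusted p below 0.05 (1.78%). limma-voom also gave 0 genes and 317 at that p. The smallest FDR was 0.329, for TMPRSS15, with a log2 difference of 6.91 ± 0.69 (SE, ovarian minus breast), and it was followed by NCAM2, a neural cell adhesion gene, with 3.45. The lines of 1 tissue did not resemble each other more than those of different tissues. Across 13409 genes with at least 10 counts in every line, the log2 ratios correlated at -0.07 between the breast lines and at -0.28 between the ovarian lines, and the highest value was 0.33, between HCC1954 and OVCAR8. These are correlations across genes within single library pairs, and genes are not independent replicates.

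Part of the likeness between lines moved with transcript length and GC content. When genes were split into 5 equal bins, from the shortest to the longest transcripts, the median log2 ratio went from -0.07 to 0.12 in HCC1954 and from -0.14 to 0.18 in OVCAR8, but from 0.06 to -0.10 in SKOV3. From the bin of lowest to that of highest GC content, it went from 0.11 to -0.13 in HCC1954, from 0.12 to -0.05 in OVCAR8 and from -0.08 to 0.11 in SKOV3. MDA-MB-231 differed by less, 0.00 in the bin of shortest and -0.04 in that of longest transcripts. Over all 17211 tested genes the correlation was 0.22 between HCC1954 and OVCAR8 and -0.18 between OVCAR8 and SKOV3. After the median of genes of like length and GC was subtracted, these values were 0.18 and -0.15 over the tested genes with a known length. Under this adjustment the immediate early list was at -0.50, 0.64, -0.07 and -0.61, the interferon list at 0.03, -0.36, 0.14 and -0.25, and the EMT list in HCC1954 at 0.73. Other lists moved more. In HCC1954 the ERK list went from -0.06 to 0.07 and the BCL2 list from -0.15 to -0.04. The collagen list in OVCAR8 went from 0.13 to 0.02. Genes without a known length dropped out of the adjusted medians.

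**Figure D5:**
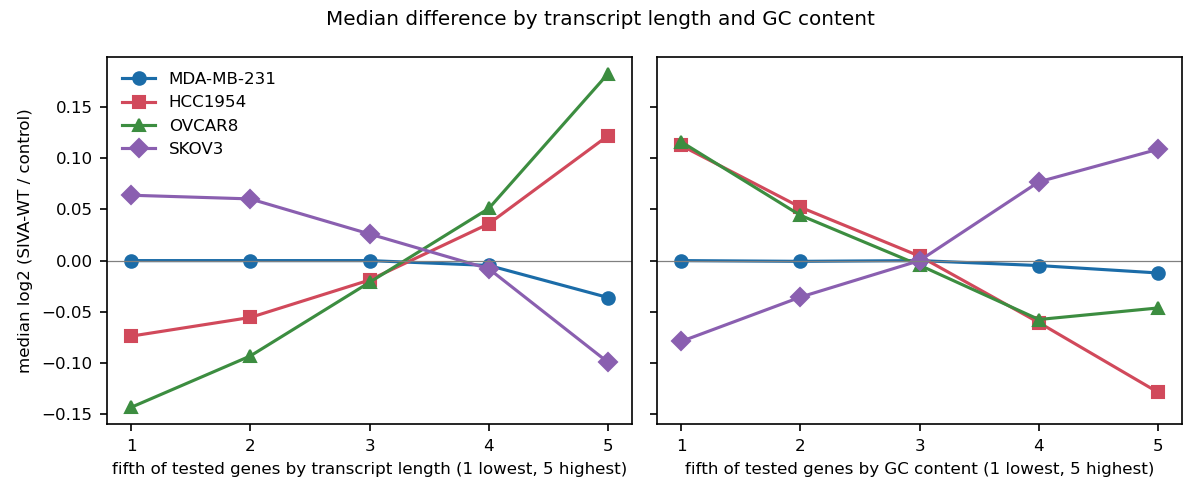
Median within-line log2 ratio of SIVA-WT over control (y axis) over 5 bins of transcript length and of GC content (x axis, low to high) in each of the 4 lines. In HCC1954 and OVCAR8 the medians were higher for longer and AT-rich transcripts, and in SKOV3 they had the opposite slope.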

How the data were processed

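RNA was extracted with Trizol and sequenced from stranded mRNA libraries. The deposited table holds raw counts per gene. Per the labels, the submitters' processing notes name FastQC, STAR 2.5.3a, edgeR and the build GRCh38, and in the study's methods the gene counts are taken from the output of STAR, with the strand setting not given in the sources used here. A deposited table of CPM values was not used here. Symbols were those of the table.

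Counts of all 12 libraries were fitted with edgeR 4.0.16 (R 4.3.3) quasi-likelihood tests with cell line as the block and condition as the term, TMM scaling and a filter on low counts. A gene was called at a Benjamini-Hochberg adjusted p (FDR) below 0.05 with a log2 fold change of 1.5 or more in size. The SIVA-D160N libraries and the controls enter the estimate of the spread. Within-line log2 ratios used a prior count of 2. Intervals of a fold are exact at 95% and cover counting error only. Depth was 35791455 to 45890398 counts per library, and a floor of 3 counts was 0.0654 to 0.0838 CPM. Alternatives were limma 3.58.1 (voom), DESeq2 1.42.0, other scalings, no filter, 8 libraries alone, no block, and each line left out. The scripts were tested on simulated data.

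The line pairs the libraries: deviations of the control and SIVA-WT library from their group means correlated at 0.952 to 0.974 within a line and at -0.452 to -0.154 between lines. Nothing in the labels shows separate cultures of 1 line, so p-values measure the spread of the line differences. Named genes were SIVA1, the 10 higher and the 10 lower genes of smallest p with 1 direction in all lines and at least 10 counts, the leading remaining genes by p, the largest differences within each line, and the leading genes of each list. The members and lists were chosen with earlier results of these data known. Some genes were in more than 1 list, BCL2L1 among them, so the lists were not independent of each other. Results for 1 gene and for the list built on it are not reported here. Promoters came from RefSeq (GRCh38.p14), with the last 250 bases before the start searched on both strands. Transcript length and GC content came from the longest GENCODE transcript of each gene and covered 98.88% of tested genes. This adjustment was added after seeing the data.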

Additional observations from a re-analysis of the deposited data

Results flagged for a closer look

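Among 67 sets of 4 line values checked for a value far from the other lines, 5 had one, and chance alone would give 3.35. SIVA1 had a log2 ratio of 9.58 in HCC1954, where the control library had no count. TGM2, the tissue transglutaminase gene, had a log2 ratio of 0.22 in OVCAR8, below those of the other lines (0.47, 0.49 and 0.52). The median log2 ratio of the EMT list was 0.68 in HCC1954, that of the epithelial list was 0.17 in OVCAR8, and that of the sterol and fatty acid list was -0.17 in HCC1954.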

How the results depend on the processing

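Of SIVA1 and the genes named for their p over the 4 lines, none changed direction in the fit under the alternatives that were run, and this was not computed for the genes named for a single line or list. Medians of lists near 0 changed sign when 1 line was left out, among them DNA replication (-0.07 to 0.14), EMT (-0.02 to 0.24) and NF-kB (-0.22 to 0.18). The count of genes past both thresholds was 0 in the main analysis and 0 to 0 when 1 line was left out, 1 with limma-voom, 1 with DESeq2 (2 at the FDR alone) and 10 when all 34909 genes with at least 1 count were tested (16 at the FDR alone). Genes at an unadjusted p below 0.05 numbered 253 higher and 184 lower. They numbered 481 and 365 with all genes tested, and 194 to 451 and 152 to 259 with 1 line left out, the 451 being without SKOV3. Total-count scaling gave 117 lower. Without the replicate block of cell lines, 1 gene was higher and 1 lower at that p, and this changed no other call. The log2 fold change of SIVA1 was 1.97 with an FDR of 0.00441 when all genes were tested, 1.32 with an FDR of 0.0101 without HCC1954, and 1.32 to 2.36 over the lines left out. Counts of 2-fold differences within a line moved with the prior count and the filter. With a prior count of 0.5 they were 573 lower in MDA-MB-231, 322 lower in HCC1954, 511 higher and 326 lower in OVCAR8 and 517 higher in SKOV3. Among tested genes with at least 100 counts in 1 library they were 61 and 76, 122 and 22, 34 and 6, and 93 and 178 higher and lower in MDA-MB-231, HCC1954, OVCAR8 and SKOV3. The difference between breast and ovarian lines gave 16 genes when all genes were tested, TMPRSS15 and FOSB among them. For the genes named for their p, 305 values kept their side of the threshold and 11 passed it, and of the list medians 368 stayed within the spread and 4 moved beyond it. The causes were not tested. With 4 lines and 1 library of each kind per line, differences confined to 1 line have no replicate error, and genes with few counts have wide counting intervals.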
